A study of Homo sapiens with 7 samples.

Results

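The genes described here encode the nucleases that cut or degrade the RNA strand of a DNA-RNA hybrid or its fragments, and 3 nuclear proteins of one family reported to bind antisense oligonucleotides. They are RNASEH1, the RNase H2 subunit genes RNASEH2A, RNASEH2B and RNASEH2C, the exonuclease genes XRN1, XRN2 and DIS3, and NONO, SFPQ and PSPC1. They were taken by gene name from the expression table, and all 10 were found among its 60234 genes. The choice was made by function, with no measured value as a criterion, but earlier results of these data were known. The cells were cardiomyocytes differentiated from WTC-11, an established human induced pluripotent stem cell line, and matured for 35 days. They were then exposed to an antisense oligonucleotide (ASO), a synthetic strand that base-pairs with a chosen RNA, passively at 2 uM for 96 h, with no transfection step named in the labels. The control group received a scrambled ASO (3 libraries) and the other group an ASO against MYH7B (4 libraries), and poly-A selected RNA was sequenced from each. No group of cells without any ASO is among the samples, so an effect of ASO exposure shared by both groups cannot be seen in these comparisons.

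RNase H enzymes cut RNA that is paired with DNA. RNase H1 acts alone in the nucleus, the cytoplasm and the mitochondria, where it is needed to maintain mitochondrial DNA, and it is the enzyme that DNA-like ASOs recruit to cut their target RNA. RNase H2 is a complex of the catalytic subunit RNASEH2A with RNASEH2B and RNASEH2C, and also removes ribonucleotides from genomic DNA. After a cut, the 3′ fragment is degraded from its 5′ end by XRN2 in the nucleus or XRN1 in the cytoplasm, and the 5′ fragment is degraded from its 3′ end by the RNA exosome, whose catalytic subunits include DIS3. NONO, SFPQ and PSPC1 are RNA-binding proteins of the DBHS family (Drosophila behaviour/human splicing) that form paraspeckles, nuclear bodies built on the noncoding RNA NEAT1, and ASOs with phosphorothioate linkages are known to bind them. The labels give neither the chemistry nor the sequence of the ASOs used.

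Levels are in TPM, an abundance corrected for transcript length and expressed relative to all transcripts of a library. TPM keeps no sequencing depth, so the error given is the spread between libraries. MYH7B ASO replicate 1 has its values in another gene order than the remaining columns. The comparisons therefore use 6 libraries, scrambled ASO replicates 1 to 3 and MYH7B ASO replicates 2 to 4, and its reordered values are given beside them. Mitochondrially encoded genes held 17.2% of TPM in MYH7B ASO replicate 1 and 27.4% to 33.6% in the 6 libraries. TPM is a share, so a lower mitochondrial share leaves more TPM to all other genes. MYH7B, the target, had 23.0, 36.5 and 25.1 TPM with the scrambled ASO and 9.30, 5.65 and 6.31 TPM with the MYH7B ASO (replicate 1: 1.29 TPM), so each library matched its label. In limma on log2(TPM + 1), 265 of 15988 tested genes had an adjusted p under 0.05 (called), and the MYH7B ASO group was higher in 29 of these and lower in 236. After median-ratio rescaling of the libraries the split was 58 higher and 213 lower, and after quantile normalization 55 and 202. Cardiomyocyte markers (12 of 12 above 0 in all 6 libraries) summed to 10932 to 12063 TPM with the scrambled ASO and 9112 to 11448 TPM with the MYH7B ASO, and to 8201 TPM in replicate 1. None of the 12 was called by limma, 6 were lower at an unadjusted p under 0.05, and their median log2 fold change was -0.36. The authors' deposited table called 1 of them lower. Fibroblast markers summed to between 2881 and 5173 TPM with the scrambled ASO and between 1344 and 2071 TPM with the MYH7B ASO (8 of 8 above 0 in all 6 libraries), against 4069 TPM in replicate 1. Of these 8, limma called 2 lower. At an unadjusted p under 0.05, 5 were lower and 2 higher, and the median log2 fold change was -1.02. The authors' deposited table called 4 lower and 2 higher. The 2 higher genes were PDGFRA (log2 fold change 0.60, limma, adjusted p = 0.152) and TCF21 (0.71, limma, adjusted p = 0.168) in both. Smooth muscle markers (4 of 4 above 0) summed to 934 to 1330 TPM and 543 to 723 TPM, against 1075 TPM in replicate 1. Of these 4, MYH11 was called lower by limma and 3 were lower at an unadjusted p under 0.05. The authors' deposited table called 3 lower. The median log2 fold change was -1.08, while that of CNN1 was 0.24. Endothelial markers lay between 7.61 and 10.4 TPM in the 6 libraries (16.02 TPM in replicate 1). Most of this sum was KDR (6.89 to 9.82 TPM), while PECAM1, CDH5 and VWF had means under 1 TPM. Pluripotency markers lay between 1.49 and 2.87 TPM (0.801 TPM in replicate 1), with SOX2 listed at 0 in scrambled ASO replicate 1. Most of that sum was POU5F1 (1.11 to 2.70 TPM), while NANOG, LIN28A and SOX2 had means under 1 TPM. In bulk RNA, fewer cells of a type and less RNA per cell cannot be told apart.

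All 10 genes passed the minimum mean of 1 TPM, and none was called (limma, adjusted p from 0.259 to 0.998). Of all tested genes 1.66% were called, 0.181% higher and 1.48% lower. At an unadjusted p under 0.05 there were 2 of 10, XRN1 lower and NONO higher, while 15.2% of all tested genes reached that level, 4.67% higher and 10.6% lower. Only NONO, 1 of 10, had groups without overlap, against 21.2% of all tested genes. With the reordered replicate 1 added, 0 of 10 were called and 1 (XRN1) had an unadjusted p under 0.05. Of all genes tested over those 7 libraries 1.07% were called (0.107% higher, 0.967% lower) and 13.5% had an unadjusted p under 0.05 (4.3% higher, 9.16% lower). NONO was again the 1 member without overlap, against 14.9% of those genes. The log2 fold changes ran from -0.73 to 0.32 with a median of 0.011, beside a median of -0.044 over all tested genes. For 8 of the 10 the change was under 0.25 in size. The 95% interval of the change lay within 1 of 0 on the log2 scale for 8 genes, the exceptions being XRN1 and RNASEH2A. Of the 10, NONO alone was called in the authors' deposited table, where it was higher. That table called 8.71% of its genes, 3.02% higher and 5.69% lower.

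**Figure D1:**
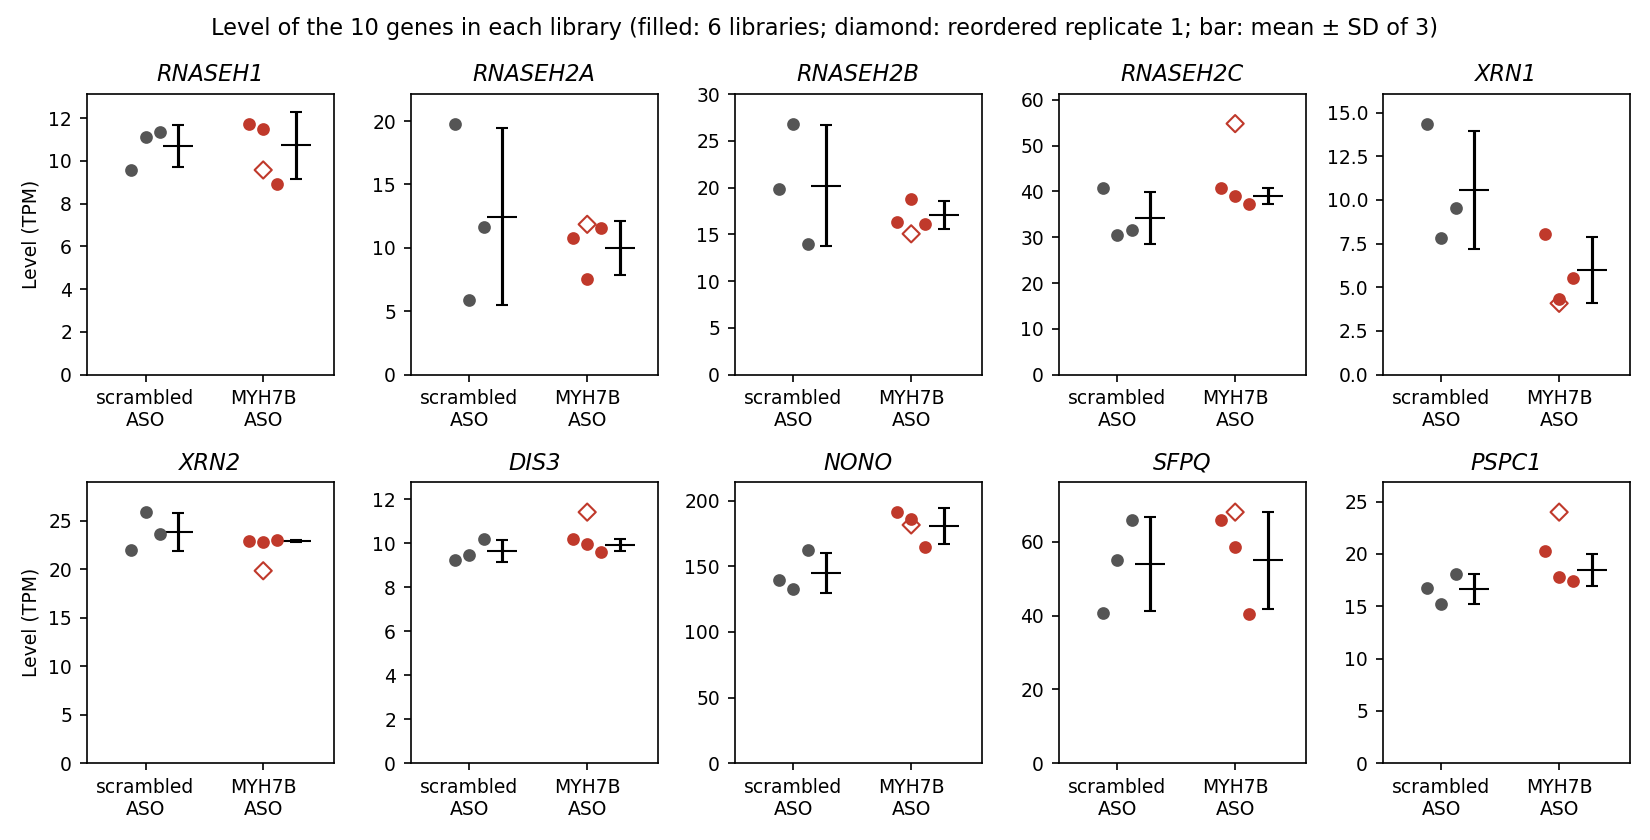
Level in TPM (y axis, from 0, scaled per panel) of each of the 10 genes in scrambled ASO libraries (grey) and MYH7B ASO libraries (red), with the reordered MYH7B ASO replicate 1 as an open diamond and the mean ± SD of the 3 filled points beside each group. Only NONO has every MYH7B ASO library above every scrambled ASO library, and XRN1 has the lowest MYH7B ASO mean relative to its scrambled ASO mean.

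With the scrambled ASO, NONO stood highest at 145 ± 15.4 TPM (SD, n = 3), at the 97.0th percentile of tested genes by mean level over the 6 libraries. SFPQ followed at 54.0 ± 12.6 TPM (SD, n = 3) and RNASEH2C at 34.3 ± 5.70 TPM (SD, n = 3). XRN2, RNASEH2B and PSPC1 came next at 23.8, 20.2 and 16.7 TPM. RNASEH2A, RNASEH1, XRN1 and DIS3 had means of 12.5, 10.7, 10.6 and 9.63 TPM. In that order, all NONO values lay above all SFPQ values and all RNASEH2C values above all XRN2 values, while every other pair of neighbours overlapped. RNASEH1, the enzyme recruited by DNA-like ASOs, was thus a mid-level transcript, at the 54.8th percentile of tested genes.

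The regions just before the RefSeq start sites of RNASEH1, XRN1 and NONO are shown. These are the gene central to ASO action and the 2 genes with an unadjusted p under 0.05, one lower and one higher with the MYH7B ASO. Each is the 250 bases before the RefSeq start on GRCh38.p14, 5′ to 3′ in the direction of the gene, with matches to the searched motifs in capitals. The windows are chr2:3558334-3558583 (minus strand) for RNASEH1, chr3:142448038-142448287 (minus strand) for XRN1 and chrX:71283385-71283634 (plus strand) for NONO.
RNASEH1: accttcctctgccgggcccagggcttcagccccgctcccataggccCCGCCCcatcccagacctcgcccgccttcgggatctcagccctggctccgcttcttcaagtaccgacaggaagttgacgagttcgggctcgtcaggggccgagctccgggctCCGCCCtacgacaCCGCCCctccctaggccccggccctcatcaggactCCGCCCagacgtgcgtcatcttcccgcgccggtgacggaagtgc
XRN1: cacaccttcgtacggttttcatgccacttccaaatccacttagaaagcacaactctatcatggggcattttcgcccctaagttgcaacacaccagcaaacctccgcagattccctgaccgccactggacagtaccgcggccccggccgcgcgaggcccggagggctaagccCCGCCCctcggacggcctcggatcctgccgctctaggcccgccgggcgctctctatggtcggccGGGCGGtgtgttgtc
NONO: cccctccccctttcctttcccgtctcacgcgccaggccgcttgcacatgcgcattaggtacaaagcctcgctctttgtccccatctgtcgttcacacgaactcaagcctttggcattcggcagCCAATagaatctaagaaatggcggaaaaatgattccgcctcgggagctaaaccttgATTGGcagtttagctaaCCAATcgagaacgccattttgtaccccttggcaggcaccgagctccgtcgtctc
Common core promoter motifs were searched on both strands in all RefSeq windows. GGGCGG, the GC box bound by SP1, matched 4 times in the RNASEH1 window and 2 times in the XRN1 window. CCAAT, the element bound by NF-Y, matched 3 times in the NONO window and in neither of the others. RefSeq entries matched 9 of the 10 genes, SFPQ being the exception. GGGCGG was in 4 of these 9 (DIS3, RNASEH1, RNASEH2B and XRN1), beside 42.6% of all 35116 RefSeq windows. CCAAT was in 4 of 9 (DIS3, NONO, RNASEH2A and RNASEH2B), beside 32.0%. The TATA box, searched as TATAAA, was in none of the 9, beside 10.7% of all windows. The ETS-family motif CCGGAAG was in 2 (DIS3 and RNASEH2A), beside 8.52%. An E-box, CACGTG, was in XRN2 alone, beside 6.34%. The NRF1 motif was in PSPC1 alone, beside 5.07%, and the YY1 motif in none, beside 0.510%. RNASEH2B and XRN2 have a pair of windows each, and a motif in either was counted. The GC content of the 9 windows, with the first listed where there was a pair, had a median of 63.6%, beside 58.0% over all windows.

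RNASEH1 (ENSG00000171865.10; chromosome 2, 3544793 to 3558616, minus strand, GENCODE 29 on GRCh38) had nearly equal means with both ASOs. Its level was 9.57, 11.1 and 11.3 TPM with the scrambled ASO and 11.7, 11.5 and 8.91 TPM with the MYH7B ASO, with 9.57 TPM in the reordered replicate 1. The groups overlapped over nearly their whole range. The means were 10.7 ± 0.973 and 10.7 ± 1.57 TPM (SD, n = 3 each). In log2 terms the change was -0.0013, with a 95% interval from -0.41 to 0.40 (limma, adjusted p = 0.998). Over 7 libraries it was -0.036, and the authors' deposited table gave 0.056 (adjusted p = 0.893) at a mean normalized count of 991. Among the 6 libraries the lowest RNASEH1 values were in MYH7B ASO replicate 4 and scrambled ASO replicate 1, and SFPQ was lowest in the same 2 libraries.

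The genes whose levels over the 6 libraries were most like RNASEH1 were MED15, a subunit of the Mediator complex, SNX4, a sorting nexin, and EPHB4, an ephrin receptor. Their Pearson correlations were 0.987, 0.984 and 0.982, the highest among 7542 genes whose mean reached 10 TPM, and the points share the 6 libraries. Like RNASEH1, MED15 was lowest in MYH7B ASO replicate 4 and scrambled ASO replicate 1, with 20.2 and 23.4 TPM against 26.8 to 28.8 TPM in the other 4 libraries. MED15 was picked for its likeness to RNASEH1 in these libraries, so this follows from the choice. None of the 3 was called (limma, adjusted p from 0.897 to 0.985).

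RNASEH1-AS1, a noncoding gene on the opposite strand, overlaps the start of RNASEH1. Its level was 2.22, 3.13 and 3.42 TPM with the scrambled ASO and 3.44, 2.66 and 1.52 TPM with the MYH7B ASO, so these groups overlapped too. The use of strand in counting is not stated, so reads in the shared stretch cannot be told apart. The pseudogene RNASEH1P1 was at 0.0842 to 2.78 TPM in the 7 libraries and RNASEH1P2 was listed at 0 in all.

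None of the RNase H2 subunit genes was called, and their scrambled ASO libraries were more spread out than those of RNASEH1. RNASEH2A, the catalytic subunit (ENSG00000104889.6; chromosome 19, 12806556 to 12815201), was at 19.8, 5.89 and 11.7 TPM with the scrambled ASO. With the MYH7B ASO it was at 10.8, 7.58 and 11.6 TPM, and at 11.9 TPM in replicate 1. Scrambled ASO replicates 1 and 2 held the highest and the lowest value of all 7 libraries. The log2 fold change of -0.17 had a 95% interval from -1.02 to 0.68 (limma, adjusted p = 0.870), the widest of the 10 genes. It was 0.22 without scrambled ASO replicate 1 and -0.58 without scrambled ASO replicate 2, so the sign was set by which of them entered. RNASEH2A lies wholly within HOOK2 on the opposite strand, a gene at 10.5 to 19.0 TPM in the 6 libraries. THSD8 overlaps RNASEH2A by 7026 bases on the same strand. It was listed at 0 in all scrambled ASO libraries and in replicate 1, and at 0.453, 2.62 and 0.769 TPM in MYH7B ASO replicates 2 to 4. THSD8 was under the minimum for testing and singled out after its values were seen.

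RNASEH2B (ENSG00000136104.21; chromosome 13, 50909678 to 51024120) encodes the subunit that ties the complex to the DNA clamp PCNA. Its level was 19.8, 26.8 and 13.9 TPM with the scrambled ASO and 16.4, 18.8 and 16.1 TPM with the MYH7B ASO. All MYH7B ASO values lay inside the scrambled ASO range, as did the 15.1 TPM of replicate 1. Its change was -0.19 in log2, SE 0.23 (limma, adjusted p = 0.750). RNASEH2B-AS1, which overlaps its start by 1087 bases on the opposite strand, was at 2.60, 0.821 and 1.06 TPM and at 0.598, 0.542 and 0 TPM, under the minimum for testing.

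RNASEH2C (ENSG00000172922.10; chromosome 11, 65714005 to 65720947), the third subunit, was the most abundant of the complex at the RNA level. It had 40.8, 30.5 and 31.5 TPM with the scrambled ASO and 40.7, 38.9 and 37.3 TPM with the MYH7B ASO. Scrambled ASO replicate 1 matched the highest MYH7B ASO library, and replicate 1 of the MYH7B ASO stood above all others at 54.8 TPM. On the log2 scale it was higher by 0.19, with a 95% interval from -0.17 to 0.55 (limma, adjusted p = 0.607), and 0.31 over 7 libraries (limma, adjusted p = 0.508). Its direction was the same under all 18 alternatives, from 0.12 to 0.37. KAT5 overlaps it by 5600 bases on the opposite strand and was at 14.5 to 24.4 TPM in the 6 libraries and at 29.2 TPM in replicate 1, where RNASEH2C was highest too.

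The balance within RNase H2 was also compared, since a ratio within a library does not depend on scaling common to both genes. RNASEH2A stood at 0.485, 0.193 and 0.370 of RNASEH2C with the scrambled ASO and at 0.266, 0.195 and 0.311 with the MYH7B ASO. RNASEH2B stood at 0.485, 0.881 and 0.442 of RNASEH2C and at 0.402, 0.483 and 0.432. Both ratios overlapped between groups. The ratio of RNASEH1 to RNASEH2A ranged from 0.483 to 1.89 within the scrambled ASO group alone, which covered the whole MYH7B ASO range of 0.769 to 1.52.

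XRN2 (ENSG00000088930.8; chromosome 20, 21303304 to 21389827), the nuclear exonuclease, also acts in transcription termination. It was at 21.96, 25.9 and 23.6 TPM with the scrambled ASO. With the MYH7B ASO the 3 libraries were almost equal at 22.9, 22.8 and 23.0 TPM, all inside the scrambled ASO range. The change in log2 was -0.052 with a 95% interval from -0.38 to 0.27 (limma, adjusted p = 0.898). In the authors' deposited table it was 0.0094 (adjusted p = 0.982). The antisense gene AL117332.1, which overlaps the start of XRN2 by 401 bases, was at no more than 0.0335 TPM with the scrambled ASO and at 0.762, 1.32 and 0.506 TPM with the MYH7B ASO. It was under the minimum for testing, and was singled out after its values were seen.

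XRN1 (ENSG00000114127.10; chromosome 3, 142306607 to 142448062, minus strand), the cytoplasmic exonuclease, had the largest difference of the 10 genes. Its level was 14.4, 7.82 and 9.54 TPM with the scrambled ASO and 8.04, 4.34 and 5.52 TPM with the MYH7B ASO, with 4.08 TPM in replicate 1. The groups overlapped by a small margin, MYH7B ASO replicate 2 lying just above scrambled ASO replicate 2, and 2 of 3 MYH7B ASO libraries lay below every scrambled ASO library. The means were 10.6 ± 3.40 and 5.97 ± 1.89 TPM (SD, n = 3 each), a ratio of 0.564. On the log2(TPM + 1) scale the fitted difference was -0.73, SE 0.27, with a 95% interval from -1.36 to -0.099, and it missed the threshold across all genes (limma, unadjusted p = 0.0281, adjusted p = 0.259).

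The same direction was seen for XRN1 in every fit. Over 7 libraries the log2 fold change was -0.83 (limma, unadjusted p = 0.0135, adjusted p = 0.227). The authors' deposited table gave -0.58 (adjusted p = 0.0797) at a mean normalized count of 757. Leaving out 1 library gave values from -0.93 to -0.50 (limma, adjusted p from 0.213 to 0.510). The ratio of XRN1 to XRN2 was 0.654, 0.302 and 0.404 with the scrambled ASO and 0.351, 0.190 and 0.240 with the MYH7B ASO, with 0.206 in replicate 1, and overlapped in the same pair of libraries. Scrambled ASO replicate 1 had both the highest XRN1 and the highest RNASEH2A level.

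XRN1 has the longest span of the 10 genes, 141 kb, followed by RNASEH2B with 114 kb and PSPC1 with 108 kb. The 2813 tested genes that span 100 kb or more had a median log2 fold change of -0.31, with 78.0% below 0. The 6746 genes under 20 kb had a median of 0.075, with 41.4% below 0. This comparison by span was added after the values were seen, and its part in the XRN1 difference was not tested. RNASEH2B and PSPC1, of similar span, had log2 fold changes of -0.19 and 0.14. In these 6 libraries the fibroblast and smooth muscle marker sums were lower with the MYH7B ASO without overlap, and the cardiomyocyte sums overlapped. Their part in the XRN1 difference was not tested.

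The genes most like XRN1 over the 6 libraries were BCAT1, a cytosolic branched-chain aminotransferase, AC105942.1, and EIF4ENIF1, which carries the cap-binding protein eIF4E and takes part in mRNA silencing. Their Pearson correlations were 0.990, 0.990 and 0.986, the highest of 7543 genes. BCAT1 was at 27.2, 18.5 and 22.3 TPM with the scrambled ASO and 18.7, 13.8 and 14.7 TPM with the MYH7B ASO, which repeats the order of XRN1, including the overlap. BCAT1 was picked for its likeness to XRN1 in these libraries, so the shared order follows from the choice. None of the 3 was called (limma, adjusted p from 0.278 to 0.402).

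DIS3 (ENSG00000083520.15; chromosome 13, 72752169 to 72782096, minus strand) was the steadiest of the 10 among the scrambled ASO libraries, with a coefficient of variation of 5.24%. It had 9.22, 9.48 and 10.2 TPM with the scrambled ASO and 10.2, 9.96 and 9.62 TPM with the MYH7B ASO, with 11.4 TPM in replicate 1. Its log2 change was 0.039 with a 95% interval from -0.31 to 0.39 (limma, adjusted p = 0.933). The gene PIBF1 starts on the opposite strand and overlaps the start of DIS3 by 38 bases, while BORA, at 4.84 ± 1.08 and 2.86 ± 1.07 TPM (SD, n = 3 each), overlaps its 3′ end by 4030 bases. PIBF1 was at 9.30, 7.41 and 7.26 TPM with the scrambled ASO and 4.08, 2.25 and 4.59 TPM with the MYH7B ASO, which missed the threshold (limma, adjusted p = 0.112), and it was singled out after its values were seen.

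NONO (ENSG00000147140.16; chromosome X, 71283192 to 71301168) was the only member of the 10 with separate groups. It was at 139, 133 and 162 TPM with the scrambled ASO and at 191, 186 and 165 TPM with the MYH7B ASO, with 181 TPM in replicate 1. The margin was narrow, 162 TPM in the highest scrambled ASO library against 165 TPM in the lowest MYH7B ASO library. Mitochondrially encoded genes held 27.4% and 33.6% of TPM in these libraries, the lowest and the highest share among those compared. The NONO means were 145 ± 15.4 and 181 ± 13.9 TPM (SD, n = 3 each), a ratio of 1.25. The interval of the log2 change, 0.32, ran from 0.016 to 0.62 at 95%, and NONO missed the threshold across all genes (limma, unadjusted p = 0.0413, adjusted p = 0.302).

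The authors' deposited table put NONO at 0.37 in log2 (adjusted p = 0.0259), at a mean normalized count of 9402, the largest of the 10 genes. Over 7 libraries the limma value was 0.32 (unadjusted p = 0.0526, adjusted p = 0.378), and it stayed between 0.25 and 0.40 under all 18 alternatives. The lowest adjusted p among them was 0.0946, with median-ratio rescaling. With mitochondrially encoded genes removed the log2 change was 0.35 (limma, adjusted p = 0.193). The pseudogene NONOP2 was at 0.221 to 1.24 TPM. The part of the cardiomyocyte, fibroblast and smooth muscle marker sums in the NONO difference was not tested.

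**Figure D2:**
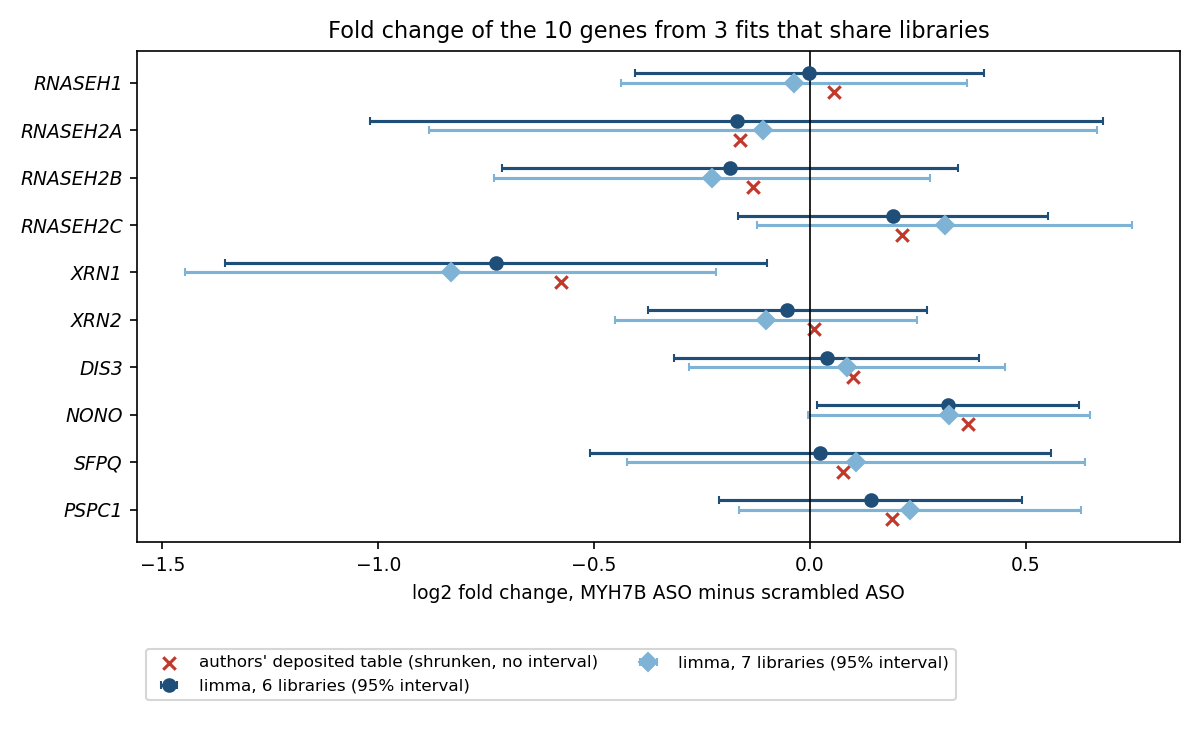
Log2 fold change of each of the 10 genes (x axis, MYH7B ASO minus scrambled ASO) from limma on 6 libraries (circles) and 7 libraries (diamonds), with 95% intervals, and from the authors' deposited table (crosses, shrunken, no interval). The limma fits share libraries, and all values come from the same experiment and are not independent. Which libraries entered the authors' deposited table is not stated in the sources used here. The 6-library interval leaves out 0 for XRN1 and, narrowly, for NONO.

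SFPQ (ENSG00000116560.11; chromosome 1, 35176378 to 35193148, minus strand), the usual partner of NONO, had overlapping groups. It had 40.8, 55.1 and 66.0 TPM with the scrambled ASO and 66.0, 58.6 and 40.3 TPM with the MYH7B ASO, with 68.0 TPM in replicate 1. Each group spanned nearly the same range. Its log2 change was 0.024 with a 95% interval from -0.51 to 0.56 (limma, adjusted p = 0.974). PSPC1 (ENSG00000121390.19; chromosome 13, 19674752 to 19783019, minus strand), the smallest contributor to the family, had 16.7, 15.2 and 18.1 TPM with the scrambled ASO and 20.3, 17.8 and 17.4 TPM with the MYH7B ASO. Those groups overlapped, and replicate 1 was higher still at 23.99 TPM. In log2 it was higher by 0.14, SE 0.15 (limma, adjusted p = 0.708). PSPC1-AS2, on the opposite strand at its 3′ end, was at 3.27, 0.782 and 0.596 TPM with the scrambled ASO. All MYH7B ASO libraries list it at 0. It was under the minimum for testing and singled out after its values were seen.

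The summed level of the DBHS genes was 197, 203 and 246 TPM with the scrambled ASO and 277, 262 and 223 TPM with the MYH7B ASO. NONO made up 65.4% to 70.8% of that sum with the scrambled ASO and 68.9% to 74.1% with the MYH7B ASO. The ratio of SFPQ to NONO was 0.293, 0.415 and 0.407 and then 0.345, 0.316 and 0.245, so the groups overlapped. PSPC1 stood at 0.120, 0.114 and 0.112 of NONO with the scrambled ASO and at 0.106, 0.0957 and 0.106 with the MYH7B ASO. This was the only one of 6 ratios examined whose groups did not overlap. The share without overlap was 21.2% for single genes and was not computed for ratios. In replicate 1 the ratio of PSPC1 to NONO was 0.132, above every scrambled ASO library.

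**Figure D3:**
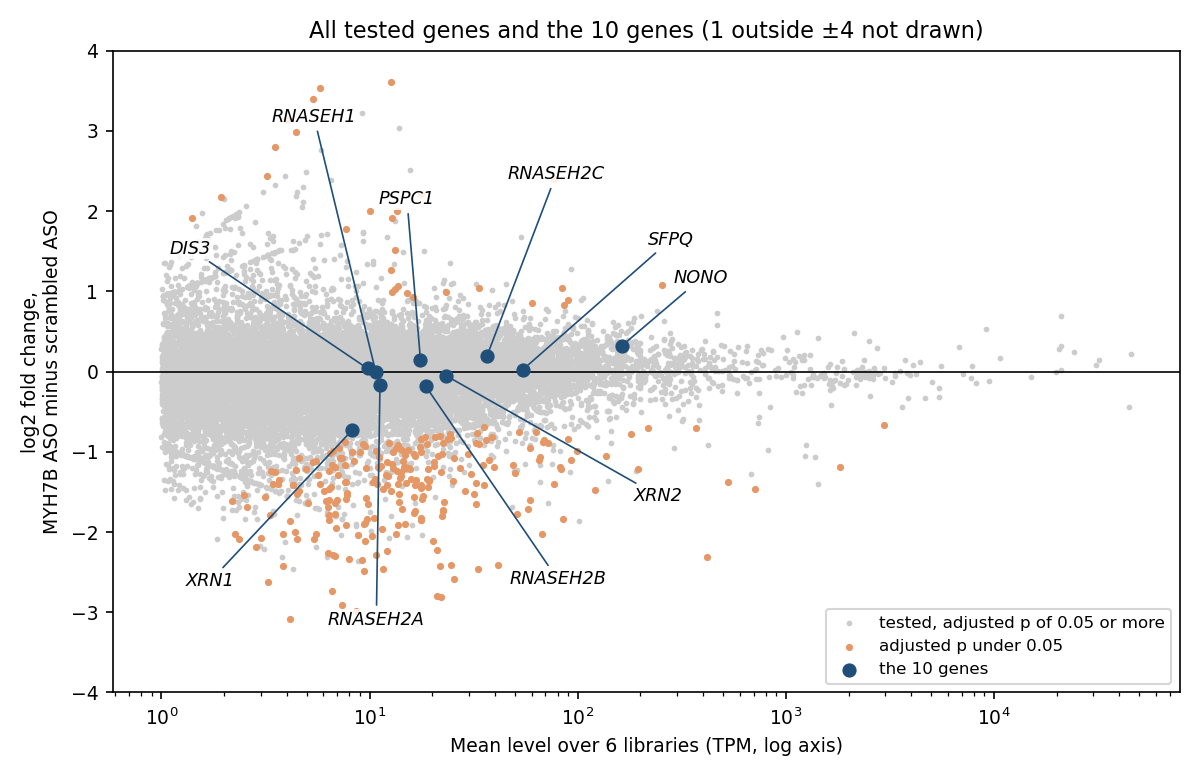
Log2 fold change (y axis, MYH7B ASO minus scrambled ASO) against the mean level over 6 libraries (x axis, TPM, log scale) for the 15988 tested genes, with 1 gene beyond the drawn range left out. Genes with an adjusted p under 0.05 are orange and mostly below 0. The 10 genes (blue) lie in the grey band, with XRN1 lowest and NONO highest.

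Genes that work with the 10 were compared through 7 lists, 148 genes of which 143 were tested. Of these, 1 was called, lower with the MYH7B ASO (0.699%, beside 1.66% of all tested genes). Of the 143, the authors' deposited table called 14 (9.79%, beside 8.71%). The list of RNA exosome subunits and cofactors, the partners of DIS3, held the called gene, ZCCHC7, a zinc-knuckle protein of the TRAMP complex that hands nuclear RNA to the exosome. It fell from 14.6 ± 1.14 to 6.89 ± 1.30 TPM (SD, n = 3 each), a log2 fold change of -0.99 (limma, adjusted p = 0.0411). The call was lost when any one of the 6 libraries was left out (limma, adjusted p from 0.0917 to 0.123). It was also lost under 8 of the other 12 alternatives. These include median-ratio rescaling, quantile normalization and the replicate blocks, in which limma called no gene. The call was missing there for every gene, so the blocks say little about ZCCHC7. The ZCCHC7 call was kept over 7 libraries (limma, adjusted p = 0.0388). In the authors' deposited table ZCCHC7 was called lower too (log2 fold change -0.79, adjusted p = 0.00404). That table called 3 genes of the exosome list higher and 1 lower. Over all 24 tested genes of that list the median was 0.066, with 14 values above and 10 below 0.

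Among 21 tested genes that resolve or limit DNA-RNA hybrids, none was called by limma, with 3 lower and 0 higher at an unadjusted p under 0.05, and 1 was called lower in the authors' deposited table. Their median of -0.18 was the lowest of the 7 lists, beside -0.044 over all tested genes. The part of gene span in this median was not tested. The lowest p was that of BRCA1, a DNA repair gene, at 4.79 ± 2.23 and 1.52 ± 0.315 TPM (SD, n = 3 each; limma, adjusted p = 0.137). BRCA1 was the gene called lower in the authors' deposited table (log2 fold change -0.89, adjusted p = 0.00778). Of 12 tested genes of mitochondrial DNA maintenance, the process that requires RNase H1, none was called or had an unadjusted p under 0.05, and the authors' deposited table called none. Their median was 0.051, and the lowest p was that of SUPV3L1, a mitochondrial RNA helicase, at 10.1 ± 0.769 and 13.3 ± 1.64 TPM (SD, n = 3 each; limma, adjusted p = 0.355). Of 19 tested decapping factors and XRN partners none was called by limma, 1 had an unadjusted p under 0.05, and the authors' deposited table called 1 higher. That gene was EDC4, a decapping scaffold that feeds mRNA to XRN1, at 13.3 ± 1.05 and 19.1 ± 2.42 TPM (SD, n = 3 each; limma, adjusted p = 0.206). The median of that list was 0.081, while XRN1 itself was at -0.73.

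Of 23 tested paraspeckle components none was called by limma, with 3 higher and 2 lower at an unadjusted p under 0.05. The authors' deposited table called 2 higher and 1 lower. The list median was 0.0049. Of 26 tested proteins reported to bind phosphorothioate ASOs none was called by limma, with 2 higher and 3 lower at an unadjusted p under 0.05, and the authors' deposited table called 2 higher and 2 lower. The lowest p was that of DHX36, a helicase for G-quadruplexes, at 28.99 ± 7.94 and 11.3 ± 4.29 TPM (SD, n = 3 each; limma, adjusted p = 0.0729), and it was called in 1 of 18 alternatives. DHX36 was among the 2 called lower in the authors' deposited table (log2 fold change -1.02, adjusted p = 5.2e-05). Of 18 tested ASO uptake and trafficking genes none was called by limma, with 1 higher and 1 lower at an unadjusted p under 0.05, and the authors' deposited table called 1 lower. The lowest p was that of EEA1, an early endosome tether, at 6.85 ± 1.49 and 3.89 ± 0.350 TPM (SD, n = 3 each; limma, adjusted p = 0.181). EEA1 was the gene called lower in the authors' deposited table (log2 fold change -0.62, adjusted p = 0.0233). The medians of these last lists, -0.00073 for the binders and -0.073 for uptake, lay close to that of all genes. Of the lower genes named from the lists, ZCCHC7, BRCA1 and EEA1 span 238, 126 and 159 kb, and DHX36 spans 52.0 kb. Among tested genes of 100 kb or more 5.26% were called lower (limma), beside 1.48% of all tested genes with a span. The part of span in these differences was not tested.

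**Figure D4:**
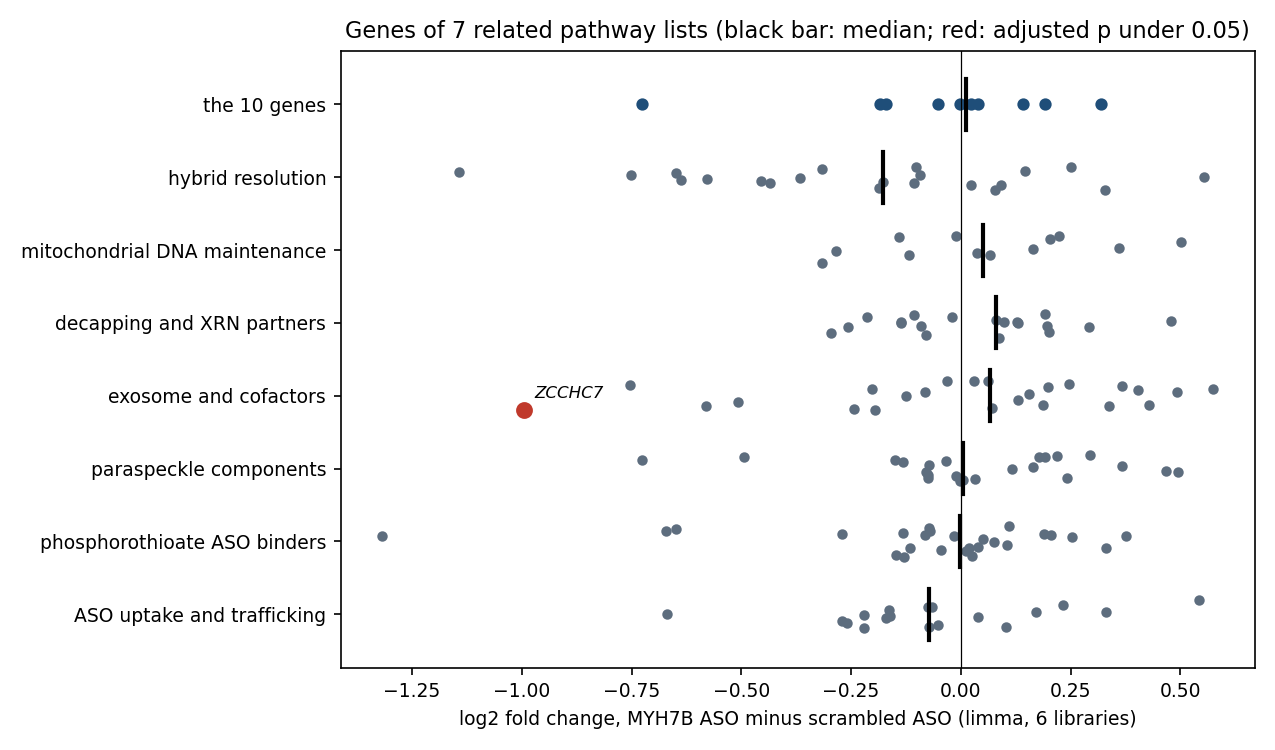
Log2 fold change (x axis, MYH7B ASO minus scrambled ASO, limma on 6 libraries) of the 10 genes and of the tested genes of 7 lists (rows), with the median of each row as a black bar. ZCCHC7 at -0.99 is the only gene with an adjusted p under 0.05, and the row medians lie between -0.18 and 0.081.

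**Figure D5:**
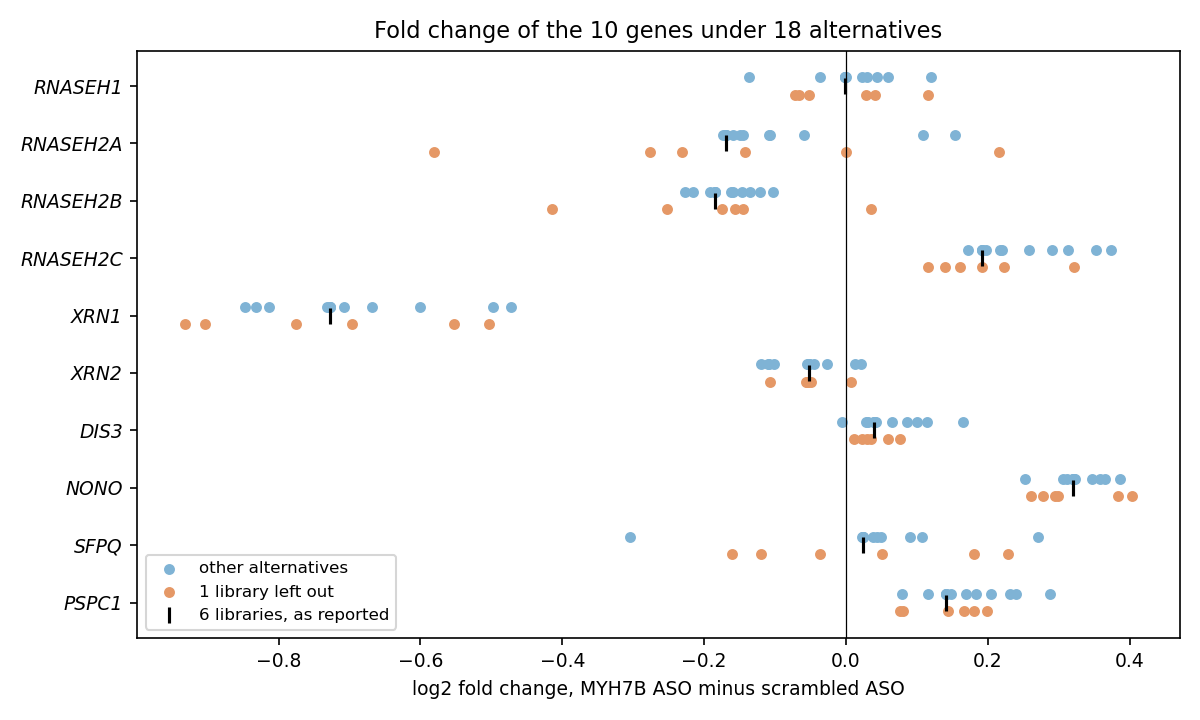
Log2 fold change of the 10 genes (x axis, MYH7B ASO minus scrambled ASO) with 6 libraries (black tick), with 1 library left out (orange) and under the other alternatives (blue), 18 in all. NONO, PSPC1 and RNASEH2C stay above 0 and XRN1 below 0 in each, and the other 6 genes take both signs.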

How the data were processed

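Poly-A RNA of 7 libraries was measured. The TPM table was deposited by the authors, who per the submitters' processing notes worked with GRCh38.p13 and DESeq2; the quantifier and annotation release are not given in the sources used here. The authors' deposited comparison table gives a mean normalized count (a signal), a shrunken log2 fold change, its standard error, a test score and p-values (adjusted for 15527 of 25374 genes). No fold change of the authors was recomputed, and the libraries that entered their comparison are not stated in the sources used here. Values of MYH7B ASO replicate 1 fill 58721 positions. Assigned to the sorted GENCODE 29 identifiers their median correlation with the remaining columns, over genes, was 0.955, against 0.408 as deposited. Genes whose mean reached 1 TPM were tested with limma 3.58.1 (R 4.3.3) on log2(TPM + 1), lmFit and eBayes with trend, no covariate, Benjamini-Hochberg adjustment over all tested genes, called under 0.05; such fold changes understate the change of low genes. The fit was tested on simulated data. No exact test was run, as 3 against 3 cannot go below 0.1. Nothing in the labels says that libraries came from separate cultures, so p-values measure the spread between these libraries. SKIC2, SKIC3, SKIC8 and MATR3 were matched by gene identifier. Named genes are the 10 members, MYH7B, from each pathway list the called genes (at most 4) or else the gene with the lowest p, and the 3 genes most correlated with RNASEH1 and with the member of lowest p; other names were singled out later. One gene that the rule names is not reported here. Members and lists were chosen with earlier results of these data known, the lists from general knowledge. Promoter windows come from RefSeq (GRCh38.p14). Gene positions are those of GENCODE 29. Alternatives varied the pseudocount, filter, scaling, variance trend, libraries and replicate block. Python 3.11.15, pandas 2.3.3 and matplotlib 3.10.9 made tables and plots.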

Additional observations from a re-analysis of the deposited data

Results flagged for a closer look

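In the group of 4 MYH7B ASO libraries, 17 measures (the 10 genes, MYH7B and 6 ratios) were checked for a value far from the rest, and 1 had one, XRN2. It was at 19.8 TPM in replicate 1, against 22.8 to 23.0 TPM in the other 3 libraries, a gap of 0.941 of the group's whole range, above Dixon's 95% critical value for 4 samples. Chance gives about 1 in 20. Replicate 1 is the library deposited in another gene order, and its share of mitochondrially encoded transcripts was 17.2%, while the other MYH7B ASO libraries had 31.2% to 33.6%. Their part in the XRN2 value was not tested.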

How the results depend on the processing

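None of the 10 genes was called under any of 18 alternatives (limma, lowest adjusted p = 0.0946 for NONO). With 6 libraries 2 had an unadjusted p under 0.05. The alternatives with a replicate block called no gene at all, so their lack of calls says little about the 10. RNASEH2C, XRN1, NONO and PSPC1 kept their direction in all 18. The other 6 changed sign in some; the cause was not tested. RNASEH1 (-0.0013) became 0.00019 with a pseudocount of 5, 0.060 with median-ratio rescaling, 0.12 with quantile normalization and 0.023 without mitochondrially encoded genes. XRN2 became 0.012 with median-ratio rescaling and 0.022 with quantile normalization. Leaving out 1 library gave -0.072 to 0.11 for RNASEH1, -0.58 to 0.22 for RNASEH2A, -0.41 to 0.035 for RNASEH2B, -0.11 to 0.0068 for XRN2 and -0.16 to 0.23 for SFPQ.

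The count of all called genes, 265, was 40 with no filter on low values, 150 without a variance trend, 170 over 7 libraries and 53 to 149 with 1 library left out (97, 149 and 133 without scrambled ASO replicates 1, 2 and 3, and 107, 116 and 53 without MYH7B ASO replicates 2, 3 and 4). MYH7B was not called with no filter (limma, adjusted p = 0.0779), over 7 libraries (0.0525) or without MYH7B ASO replicate 4 (0.0618).

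No label says that same-numbered libraries share a culture. Same-numbered libraries had deviations that correlated at 0.076 and 0.11 by title number, -0.073 and -0.039 by description number, and 0.019, 0.14 and 0.021 over 7 libraries, where not every library correlated best with its own number. With the replicate block limma called 0 genes by title number (1718 at an unadjusted p under 0.05), 0 by description number (1096) and 0 by title number over 7 libraries (1773). A library whose number is absent from the other group adds nothing to such a fit. Over 6 libraries only title numbers 2 and 3, or description numbers 3 and 4, were in both groups. MYH7B itself was not called in these fits (limma, adjusted p = 0.331, 0.720 and 0.161), so their lack of calls says little about any gene. In the block by title number RNASEH1 was 0.044 (0.030 over 7 libraries) and RNASEH2A 0.11. In the block by description number RNASEH2A was 0.15, DIS3 -0.0058 and SFPQ -0.30.

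The deposited values carry no depth, so only the spread between 3 libraries limits these comparisons; the interval of RNASEH2A, from -1.02 to 0.68, reaches past a log2 change of -1.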
